A study of Mus musculus with 4 samples.

Results

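The value described here is the difference of 2 responses to dextran sulfate sodium (DSS), a polysaccharide that damages the lining of the colon and causes colitis. For each gene the log2 change from naive to DSS in wildtype (WT) colon was subtracted from the same change in colon without Pla2g10 (X-KO), which encodes the secreted phospholipase A2 of group X. A difference above 0 therefore means that the X-KO value went further up, or less far down, than the WT value. Of 30139 genes and unnamed transcripts with a probe, the 19324 whose brightest measured probe was well above background on all 4 arrays entered, whatever their difference.

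The series holds 4 groups of C57BL/6 mice: WT naive, X-KO naive, WT DSS and X-KO DSS. The DSS groups had 1% (w/v) DSS in the drinking water and were sampled at day 7, and the naive groups had no DSS. The labels give 9 weeks and male in fields that appear to be swapped. Each group is 1 array, hybridised with a mix of colon RNA from 3 mice, and no value below has a replicate check, an SD or a p-value. Each difference uses all 4 arrays once, and an error on any 1 of them shifts the differences in full. Colon markers were present throughout: the carbonic anhydrase Car1 had a relative signal of 78.4 to 113 on the 4 arrays and the mucin Muc2 one of 35.2 to 84.3. A relative signal is the background-corrected signal of a probe divided by the 75th percentile of its array.

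Secreted phospholipases A2 cut fatty acids from membrane phospholipids outside the cell, and the released fatty acids serve as fuel, as ligands of nuclear receptors and as the start of prostaglandin and leukotriene synthesis. DSS strips the epithelium, which lets bacteria reach the tissue, and neutrophils and monocytes move in. Repair then draws on fibroblasts, which lay down and cut matrix, and on crypt cells, which renew the epithelium. Genes of each of these steps can respond more or less strongly in 1 genotype than in the other.

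Across all genes the difference had a median of -0.09 on the log2 scale, with quartiles of -0.32 and 0.18. It was 2-fold or more above 0 (log2 1) in 697 genes, or 3.61%, and 2-fold or more below 0 in 406, or 2.1%. At 4-fold these counts were 70 and 63. Scaling the arrays on the probes well above background in all 4 gave 900 genes above and 323 below, so the share above 0 among them moved from 63.2% to 73.6%. The genes just inside 2-fold (Robo1 and Hk3 above 0, Fam222a and D130043K22Rik below) and just outside it (Ackr2 and Dbp) all round to 1.00 in size.

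The 1103 genes past 2-fold were sorted by their responses. In a turned gene both genotypes moved by at least log2 0.5, in opposite directions. Otherwise a gene was called enlarged where the X-KO response was the larger in size and blunted where the WT response was, with rise or fall taken from the larger response. The responses of an enlarged or blunted gene need not share a sign. An enlarged rise was the most common class with 478 genes (2.47%), followed by an enlarged fall with 251 (1.3%), a blunted fall with 158 (0.818%) and a blunted rise with 91 (0.471%). In 61 genes (0.316%) the response turned upward in X-KO, and in 64 (0.331%) it turned downward. The WT response was under 2-fold in 360 of the enlarged rises and in 223 of the enlarged falls. The median WT responses of these classes were 0.27 and -0.06. The background of single responses was 2.53% of genes up and 4.04% down by 2-fold or more in WT, and 4.71% up and 4.18% down in X-KO. Of the 625 genes past 2-fold in both genotypes, 606 had responses of the same sign.

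**Figure D1:**
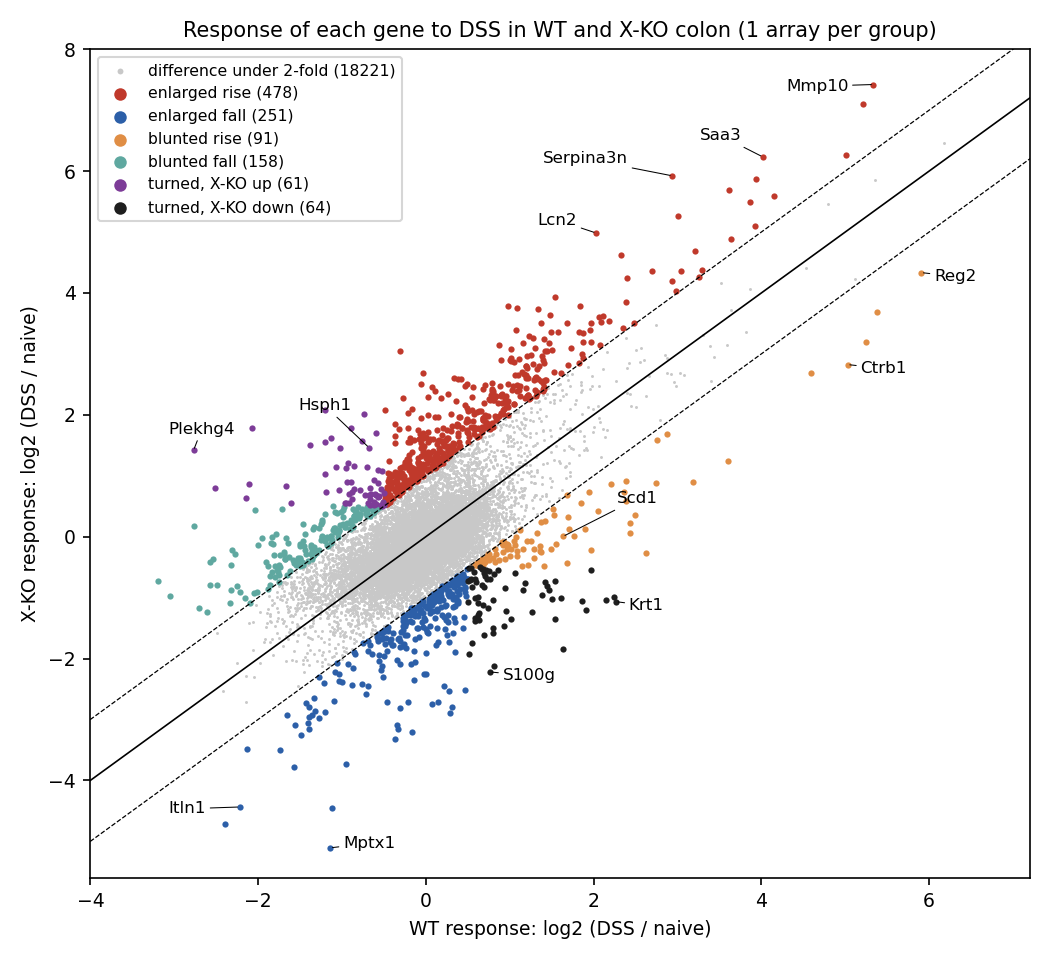
Each point is 1 gene, with its log2 response to DSS in WT on the horizontal axis and in X-KO on the vertical axis. The solid line marks equal responses and the dashed lines a 2-fold difference. The 478 red points above the upper dashed line extend to the highest X-KO responses of the plot, and the turned genes lie in the upper left and lower right corners.

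A difference of responses can come from the DSS arrays or from the naive arrays. The distance between X-KO and WT was larger with DSS than in naive colon in 928 of the 1103 genes (84.1%). That held for 454 of 478 enlarged rises, 73 of 91 blunted rises, 183 of 251 enlarged falls and 116 of 158 blunted falls. Of the turned genes it held for 50 of 61 going up and 52 of 64 going down. In the remaining genes the genotypes stood further apart before DSS than after it.

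The promoters of matrix metalloproteases are shown because 4 of these genes, which lie in 1 cluster on chromosome 9, were all in the class of enlarged rises and share a motif. AP-1, a pair of Fos and Jun proteins, binds TGAGTCA or its reverse complement TGACTCA. In the 250 bases before the transcription start, 5 of the 16 matrix protease and inhibitor genes with a promoter entry held this motif on either strand (31.2%), against 423 of 12395 measured genes (3.41%). Those 5 are printed below as the last 150 bases before the start (RefSeq promoters, build GRCm38.p6, 5′ to 3′ along the gene), with the AP-1 letters in capitals.
Mmp3 (chr9:7445672-7445821, plus strand): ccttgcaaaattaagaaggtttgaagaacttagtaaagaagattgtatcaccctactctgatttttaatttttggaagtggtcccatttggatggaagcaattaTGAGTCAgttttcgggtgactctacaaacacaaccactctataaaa
Mmp7 (chr9:7691940-7692089, plus strand): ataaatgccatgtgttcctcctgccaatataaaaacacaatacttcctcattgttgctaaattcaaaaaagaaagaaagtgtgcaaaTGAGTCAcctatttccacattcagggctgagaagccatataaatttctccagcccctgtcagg
Mmp10 (chr9:7502192-7502341, plus strand): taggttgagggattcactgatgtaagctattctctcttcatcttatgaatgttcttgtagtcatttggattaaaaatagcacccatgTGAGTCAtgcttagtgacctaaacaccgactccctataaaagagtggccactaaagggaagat
Mmp13 (chr9:7272364-7272513, plus strand): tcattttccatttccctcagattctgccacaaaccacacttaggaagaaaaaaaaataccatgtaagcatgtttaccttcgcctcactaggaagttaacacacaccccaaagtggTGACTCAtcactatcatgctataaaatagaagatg
Plaur (chr7:24462333-24462482, plus strand): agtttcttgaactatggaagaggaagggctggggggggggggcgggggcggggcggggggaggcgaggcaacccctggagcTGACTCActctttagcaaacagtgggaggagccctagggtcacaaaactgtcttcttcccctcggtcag

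The match ended 40, 57, 57, 29 and 63 bases before the start of Mmp3, Mmp7, Mmp10, Mmp13 and Plaur. The 4 metalloproteases had differences of 1.90, 1.13, 2.08 and 1.93, while Plaur, the receptor of urokinase, had one of -0.20 with the same motif. In the class of enlarged rises 14 of 295 promoters held it (4.75%), and in enlarged falls 12 of 159 (7.55%). A match is only a run of letters, and binding was not measured.

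Matrix-degrading enzymes showed some of the largest enlarged rises. Of 23 measured members of a list of 27 matrix proteases and inhibitors, 15 were 2-fold or more above 0 and 0 below (all genes: 3.61% and 2.1%), and the median difference was 1.13 (all genes: -0.09). Mmp10, stromelysin 2, stood at a relative signal of 0.0429 (WT naive) and 0.0367 (X-KO naive), then 1.73 in WT DSS and 6.3 in X-KO DSS. Mmp3, stromelysin 1, went from 0.0527 to 1.95 in WT and from 0.042 to 5.8 in X-KO, and the collagenase Mmp13 from 0.0756 to 1.16 and from 0.0714 to 4.16. The naive arrays were close in these 3 genes, and the X-KO DSS array stood apart. The probes lie on chromosome 9 of mm9, for example at 7510011 to 7510070 for Mmp10.

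The ADAMTS enzymes, which cut proteoglycans, differed in another way. Adamts4 responded in both genotypes (3.00 in WT and 5.27 in X-KO), but Adamts1, Adamts5 and Adamts9 had WT responses of -0.37, -0.06 and -0.06 and X-KO responses of 1.54, 1.96 and 1.54. Mmp2, the gelatinase of fibroblasts, likewise stood at 0.929, 0.766, 0.884 and 1.76 on the WT naive, X-KO naive, WT DSS and X-KO DSS arrays. The X-KO DSS array alone was high for Mmp2. Timp1, a secreted inhibitor of matrix metalloproteases, had a difference of 1.00, and Timp2, Timp3 and Timp4 ones of 0.34, 0.66 and -0.44.

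Collagen and matricellular genes had WT responses above 0 in 10 of 30 measured genes (of 33) and X-KO responses above 0 in 26. Their median response was -0.26 in WT and 0.89 in X-KO, the median difference 1.09, and 18 of the 30 were past 2-fold above 0 with 0 below. The difference was above 0 in 30 of 30, where 40% of all genes were. Col1a1, a chain of type I collagen, had relative signals of 6.26 in WT naive, 4.95 in X-KO naive, 5.21 in WT DSS and 10.9 in X-KO DSS. Col3a1 stood at 14.5, 12.2, 14.3 and 27.2 in the same order. Fibrillin Fbn1, which forms elastic microfibrils, turned from -0.52 in WT to 1.08 in X-KO. In naive colon 3 of the 30 were higher in X-KO than in WT (median distance -0.31), and with DSS 30 of 30 were (median 0.83).

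Growth factor genes of the stroma were among the enlarged rises as well. Of 37 measured ligands, antagonists and receptors of the EGF, BMP and Wnt pathways (of 40), 11 were past 2-fold above 0, 0 below, and the median was 0.61. Sfrp1, a secreted protein that binds Wnt ligands, had relative signals of 0.233, 0.158, 0.304 and 0.95 in WT naive, X-KO naive, WT DSS and X-KO DSS. Its relative Sfrp4 stood at 0.257, 0.137, 0.263 and 0.667. WT DSS remained near the naive arrays in both genes. Ereg (epiregulin) and Epgn (epigen), ligands of the EGF receptor, had differences of 1.46 and 1.60, whereas Areg (amphiregulin) and Hbegf had -0.46 and -0.61. The BMP antagonist Grem1 and the activin subunit Inhba had 1.38 and 1.47, and the Wnt amplifier Rspo3 had 1.34.

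Acute phase proteins, which the liver and inflamed tissue release, had a median response of 1.57 in WT and 3.26 in X-KO. Of 15 measured members (of 26), 11 were past 2-fold above 0 and 0 below, with a median difference of 1.37. Lcn2, lipocalin 2, which withholds iron from bacteria, stood at 0.262 in WT naive, 0.191 in X-KO naive, 1.07 in WT DSS and 6.05 in X-KO DSS (probe at chromosome 2, 32240199 to 32240258, mm9). Saa3, a serum amyloid A of macrophages and epithelium, stood at 0.204, 0.3, 3.3 and 22.6, and the protease inhibitor Serpina3n at 0.0826, 0.057, 0.633 and 3.45. For all 3 the DSS arrays exceeded both naive arrays, and X-KO DSS was the highest. The differences were 2.96, 2.22 and 2.99. Saa1 and Saa2, already high in naive colon, had differences of -0.30 and -0.38.

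Haptoglobin (Hp), ceruloplasmin (Cp) and Lrg1, a leucine-rich glycoprotein of neutrophils and vessels, had differences of 1.26, 1.98 and 2.08. The neighbouring Serpina3 copies are similar in sequence, and their probes may read each other's transcripts. Of 7 unmeasured members that were well above background on both DSS arrays, 4 were at least 2-fold higher in X-KO DSS, such as Serpina3m with 0.0717 in WT DSS and 0.557 in X-KO DSS. No difference of responses can be given for these, since at least 1 naive array was at background. The share of all genes with such DSS values was not counted, for this list or those below.

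Markers of recruited leukocytes mostly followed. Monocyte, macrophage and dendritic cell genes had responses of 0.81 in WT and 1.83 in X-KO (medians), and 22 of 22 measured members (of 26) had a difference above 0, 10 of them past 2-fold. Ccr2, the receptor that brings monocytes out of bone marrow, had relative signals of 0.0476 in WT naive and 0.0498 in X-KO naive, 0.174 in WT DSS and 0.502 in X-KO DSS. Arg1 (arginase) stood at 0.107, 0.126, 0.179 and 0.601, and Fcgr4, an activating antibody receptor, at 0.107, 0.149, 0.414 and 1.55. The naive values lay close together in all 3 genes. In bulk tissue a larger number of such cells and more RNA per cell cannot be told apart.

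Only 13 of 26 neutrophil genes were measured on all 4 arrays, with a median difference of 0.27, 4 past 2-fold above 0 and 1 below. That median was 0.045 among genes brighter than the median gene. It was 1.58 when the requirement was relaxed to at least 1 array above background. Members such as Retnlg and Cxcr2 then enter through the DSS arrays alone, with naive values at background. The value of 1.58 is therefore not a measured difference of responses. The 4 genes above 0 were Stfa2, Stfa2l1, Mcemp1 and Lcn2, which is counted in the acute phase list as well. S100a9, a subunit of calprotectin, had nearly equal responses of 6.18 in WT and 6.47 in X-KO, with X-KO higher already in naive colon (0.254 against 0.06) as well as with DSS (22.5 against 4.35). The stefin genes Stfa2 and Stfa2l1, inhibitors of cysteine proteases, had differences of 2.80 and 2.06, but Stfa3 had -1.27, and their probes may share transcripts. Of the 13 unmeasured genes, 9 were well above background on both DSS arrays, and all 9 were at least 2-fold higher in X-KO DSS. A share over all genes was not counted for this comparison. Retnlg, a resistin-like protein, stood at 0.302 in WT DSS and 2.76 in X-KO DSS, and the formyl peptide receptor Fpr1 at 0.0616 and 0.469.

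Chemokine ligands had a median difference of 0.68, with 10 of 25 measured members (of 32) past 2-fold above 0 and 0 below. Among genes brighter than the median gene the median was 0.12. Ccl2, which draws monocytes, stood at 0.11 in WT naive, 0.0881 in X-KO naive, 1.61 in WT DSS and 3.98 in X-KO DSS, a difference of 1.63. Cxcl13, which organises B cell follicles, had 0.588, 0.716, 0.789 and 4.32, and Ccl11, an eosinophil attractant, 0.381, 0.222, 0.771 and 1.88. Cxcl13 was high on the X-KO DSS array alone. Cxcl9 and Cxcl10, which interferon-gamma induces, had differences of 0.68 and -0.13. Of the unmeasured members, the neutrophil attractants Cxcl1, Cxcl2 and Cxcl3 and the macrophage chemokine Ccl3 were all at least 2-fold higher in X-KO DSS than in WT DSS. Cxcl1 stood at 0.635 against 0.227. How many of all genes did so was not counted.

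Interferon target genes had list medians that lay close together in the 2 genotypes. The interferon-gamma list had median responses of 1.84 in WT and 1.77 in X-KO and a median difference of -0.06. Of its 24 measured members, 2 (Ubd, 1.53, and Ido1, 1.33) were past 2-fold above 0 and 0 below (all genes: 3.61% and 2.1%). Type I interferon genes had a median of -0.27, with 2 of 25 past 2-fold above 0 (Mx2 and Ifit2), 0 below, and 18 of 25 below 0. In naive colon 24 of the 25 were already higher in X-KO than in WT (median 0.43), and with DSS 18 were (median 0.12). The DSS distance was the larger in 9 of 25. Inflammatory cytokine genes had a median of 0.355, with 3 of 10 measured members (of 25) past 2-fold above 0 and 0 below. The differences of 3 of the 10 were below 0, down to -0.81. Those past 2-fold included Il33, an alarmin of stroma and epithelium (1.87), and Il11, a fibroblast cytokine of the interleukin 6 family (1.45). Nos2, the inducible nitric oxide synthase, had 1.50. Class II antigen presentation genes had a median of 0.66 with 1 of 12 past 2-fold above 0, H2-Aa (1.27).

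Vessel and blood genes also differed. Endothelial markers had median responses of -0.06 in WT and 1.01 in X-KO, and 8 of 14 measured (of 17) were past 2-fold above 0 and 0 below, including Vcam1, which holds leukocytes to the vessel wall (0.479, 0.474, 0.676 and 1.98 in WT naive, X-KO naive, WT DSS and X-KO DSS). A second Vcam1 probe gave a difference of 1.44 against 1.57. Erythrocyte genes had the highest median of the gene lists, 2.02, with 8 of 9 measured members past 2-fold above 0. The globin Hbb-bt stood at 1.47, 1.38, 4.27 and 21.2. The summed signal of the 9 erythrocyte markers was 17.2 in WT naive, 15 in X-KO naive, 36.2 in WT DSS and 109 in X-KO DSS. Globin copies are nearly identical, and the part of blood RNA in the leukocyte and acute phase results was not tested.

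**Figure D2:**
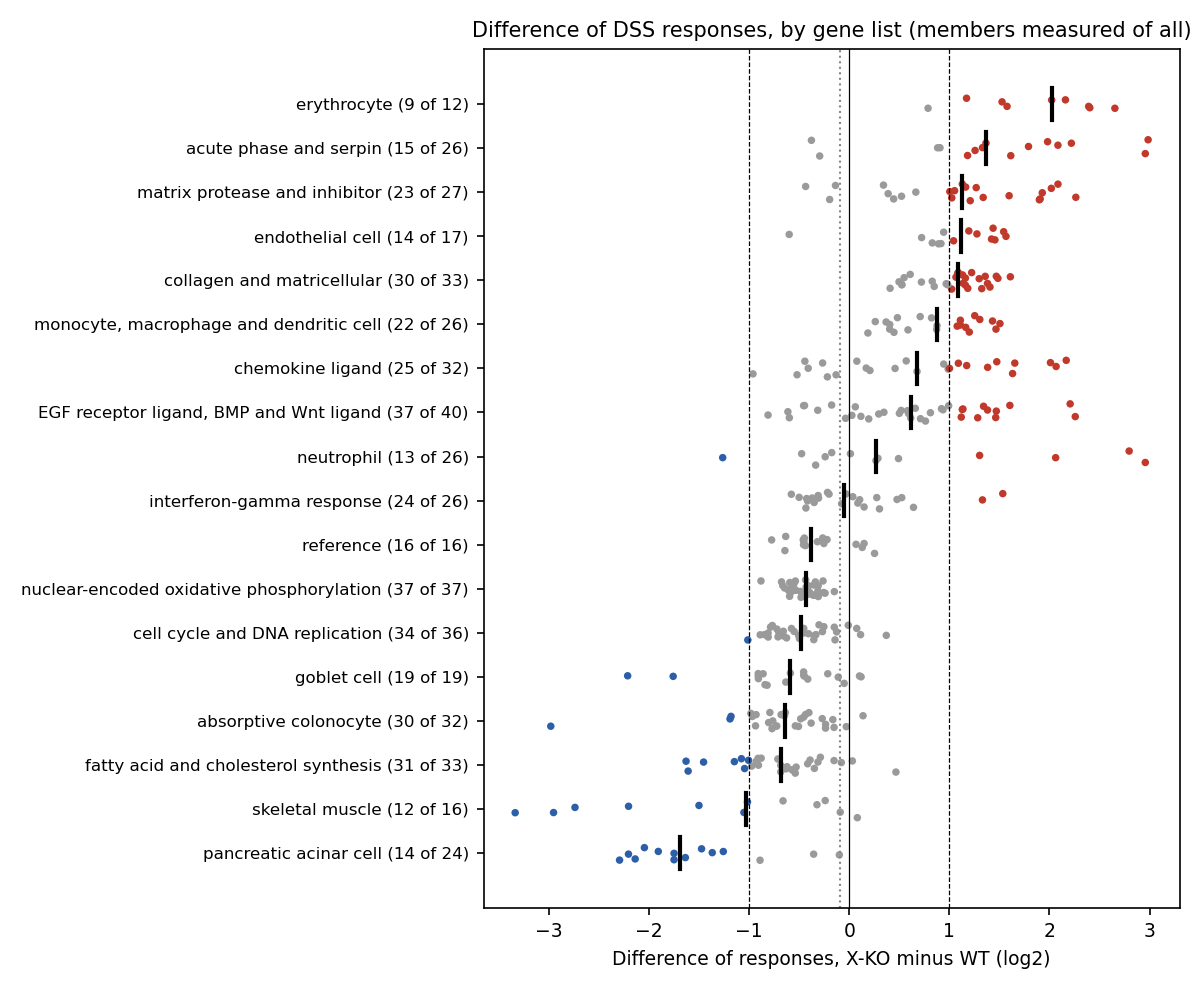
Difference of DSS responses (log2, X-KO minus WT) of each measured member of the gene lists named at the left, with 1 point per gene, the list median as a black bar, red points 2-fold or more above 0 and blue points 2-fold or more below. The dotted line is the median of all genes. Medians run from 2.02 for erythrocyte genes to -1.70 for pancreatic enzymes, and all 37 oxidative phosphorylation genes lie below 0.

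On the other side, the gene with the lowest difference of all was Mptx1, a mucosal pentraxin of the gut lining, at -3.97. Its relative signal was 47 in WT naive, 61.3 in X-KO naive, 21.4 in WT DSS and 1.78 in X-KO DSS (probe at chromosome 1, 176262673 to 176262732, mm9), and a second probe gave -3.75. Itln1, intelectin 1, a lectin of goblet cells that binds microbial sugars, stood at 1.42, 4.25, 0.304 and 0.196 (difference -2.22, second probe -2.13). X-KO was lower than WT in Mptx1 only with DSS, whereas for Itln1 the naive arrays stood further apart than the DSS arrays.

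The angiogenins, small ribonucleases of which Ang4 kills bacteria, went together. Ang4 stood at 13.7, 22.6, 5.2 and 2.54 in WT naive, X-KO naive, WT DSS and X-KO DSS. It and 4 relatives had differences from -1.76 to -1.34, in a group chosen after the values were seen, and their similar sequences may share probes. Of the 19 goblet cell genes, 2 were past 2-fold below 0 (Itln1 and Ang4) and 0 above (all genes: 2.1% and 3.61%), with a median of -0.59. The list is bright (median log2 level 5.59), and all genes of the brightest of 5 bins had a median of -0.26. Muc2, which builds the mucus gel, had 0.10, and Retnlb, a resistin-like protein directed at bacteria, -0.86. Of the 22 measured antimicrobial and Reg genes 6 were past 2-fold below 0 and 1 above (all genes: 2.1% and 3.61%). This list overlaps the goblet cell list, and Itln1 is counted in both. The lectins Reg3b and Reg3g had nearly equal responses (2.66 and 2.63, 3.30 and 3.31).

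S100g (calbindin-D9k), the calcium carrier of absorptive cells, turned. It stood at 10.9 in WT naive, 6.46 in X-KO naive, 18.5 in WT DSS and 1.39 in X-KO DSS, log2 responses of 0.76 in WT and -2.22 in X-KO. A second probe gave a difference of -3.01 against -2.98. Among 30 measured absorptive colonocyte genes (of 32), the median was -0.64, and 3 were past 2-fold below 0 and 0 above (all genes: 2.1% and 3.61%). Of the 30, 29 were below 0, where 40% of all genes were above 0. The list is bright (median log2 level 3.69), and all genes of the brightest of 5 bins had a median of -0.26. Aqp8, a water channel, had 72, 75.5, 61.1 and 28.2, and the phosphate carrier Slc20a1 29.8, 31.1, 12.8 and 5.85. For Aqp8 and Slc20a1 the naive arrays were close, and X-KO DSS was lowest. In S100g, X-KO was already lower than WT in naive colon.

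Genes of fatty acid and cholesterol synthesis had a median response of 0.49 in WT and -0.20 in X-KO. Of 31 measured members (of 33), 29 had a difference below 0, where 40% of all genes were above 0. Past 2-fold were 7 below 0 and 0 above (all genes: 2.1% and 3.61%). Scd1, which makes oleate from stearate, stood at 0.892 in WT naive, 0.752 in X-KO naive, 2.77 in WT DSS and 0.754 in X-KO DSS, responses of 1.64 and 0.00. WT DSS alone was high. Hmgcs1, an early enzyme of cholesterol synthesis, stood at 13.5, 25.4, 21.5 and 14.7 and turned (0.67 and -0.79). Insig1, which holds back the sterol sensor in the endoplasmic reticulum, had 0.256, 0.443, 0.395 and 0.224.

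Over the whole list of fatty acid and cholesterol synthesis genes, the naive arrays contributed to the difference. Sqle, Cyp51, Mvd and Fdft1, enzymes of cholesterol synthesis, had differences of -1.15, -1.08, -1.05 and -1.01. Before DSS 26 of the 31 genes of the whole list were higher in X-KO than in WT (median 0.35), and with DSS 29 were lower (median -0.37). The DSS distance was the larger in 13 of 31. These counts were not made for the sterol pathway alone. SREBP-2, the factor that turns on this pathway, is known to bind sterol response elements, and the motif TCACNCCAC was searched for that reason after the values were seen. The promoter of Hmgcs1 held it 129 to 137 bases before the start, as did 0.944% of measured genes, and the other 10 sterol genes with an entry did not. Its last 150 bases (GRCm38.p6, capitals mark the match) read:
Hmgcs1 (chr13:119690201-119690350, plus strand): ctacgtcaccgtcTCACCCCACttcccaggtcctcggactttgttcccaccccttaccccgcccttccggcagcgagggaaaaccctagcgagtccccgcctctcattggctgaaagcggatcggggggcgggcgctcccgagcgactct

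**Figure D3:**
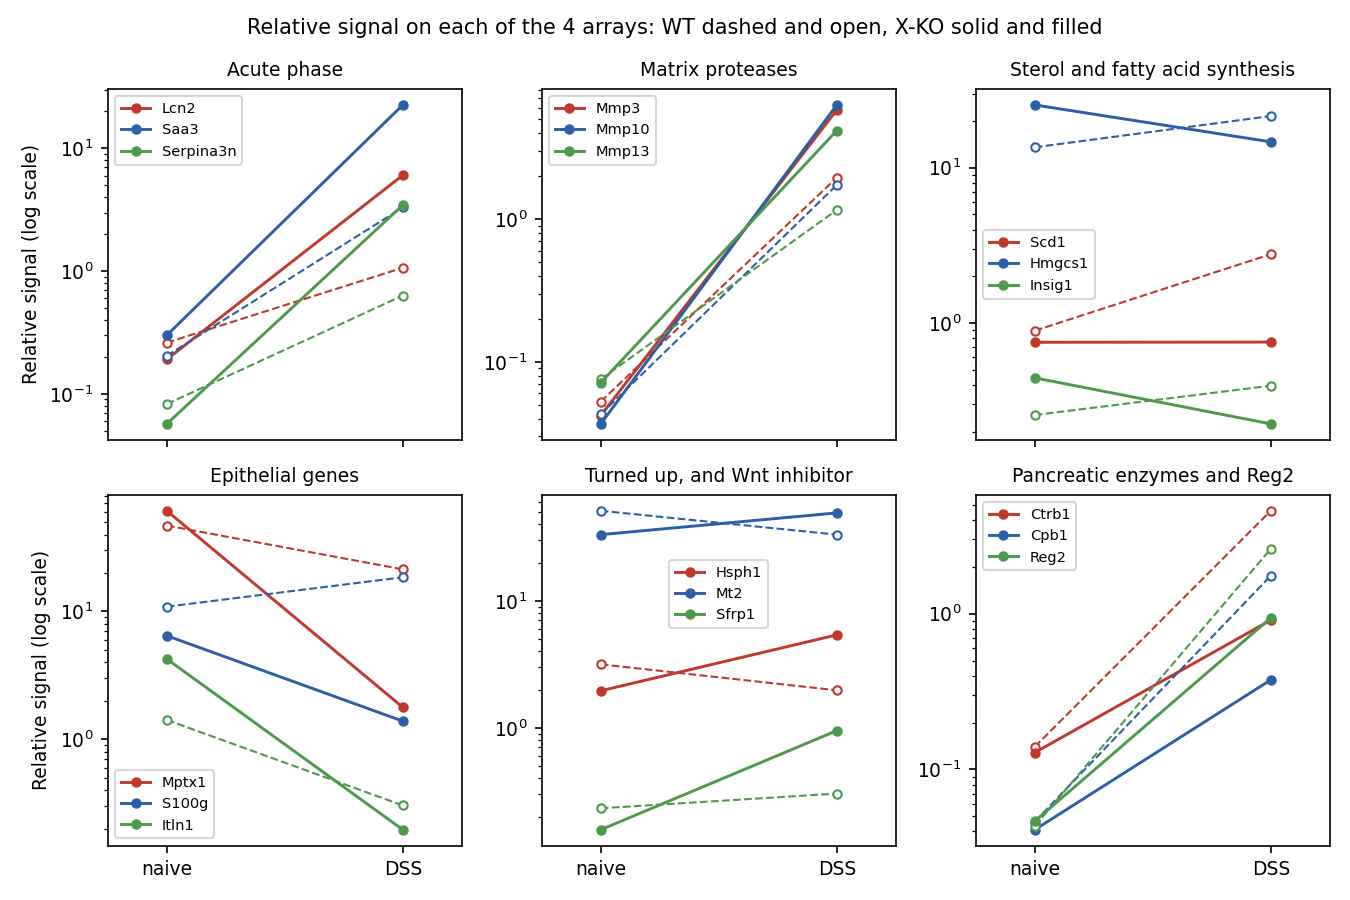
Relative signal of the genes named in each panel (log axes) on the naive and the DSS array of each genotype, WT with dashed lines and open circles, X-KO with solid lines and filled circles. The genotypes stand further apart with DSS than in naive colon for Lcn2, Mmp10 and Mptx1, and their lines run in opposite directions for Hmgcs1, Insig1, S100g, Hsph1 and Mt2.

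Blunted rises outside lipid synthesis included barrier genes. Sprr1a, a cornified envelope protein that injured epithelium makes, stood at 0.926 in WT naive, 1.91 in X-KO naive, 3.02 in WT DSS and 2.08 in X-KO DSS (difference -1.58). Gsdmc, which belongs to the pore-forming gasdermins, stood at 14.8, 18.7, 25.9 and 14.6 (-1.16). Genes of the outer skin layers were near the bottom of all genes, with Lce3a at -3.49, Krt1 at -3.34 and Serpinb3a at -3.23. Of 18 measured epidermal genes, a list drawn up after the values were seen, 15 were past 2-fold below 0. Krt1 was dim, at 0.0408 in WT naive, 0.0645 in X-KO naive, 0.197 in WT DSS and 0.0308 in X-KO DSS, and WT DSS was the highest array.

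Markers of other tissues moved with the groups. Pancreatic enzyme genes had responses of 1.91 in WT and 0.34 in X-KO (medians), and 11 of 14 measured (of 24) were past 2-fold below 0. Ctrb1 (chymotrypsinogen) stood at 0.14, 0.128, 4.57 and 0.908 in WT naive, X-KO naive, WT DSS and X-KO DSS. In addition, 9 unmeasured members were on both DSS arrays and at least 2-fold lower in X-KO, with no all-gene share counted. The Reg family genes Reg1 and Reg2, which the pancreas also makes, had differences of -1.91 and -1.57. Skeletal muscle genes had a median of -1.04 with 7 of 12 measured (of 16) past 2-fold below 0. Tnnc2, a fast muscle troponin, stood at 0.855, 1.8, 0.664 and 0.18, with X-KO naive highest and X-KO DSS lowest. The summed signal of the muscle list was 5.96, 8.27, 4.72 and 3.01. How much other tissue in a pool adds to these and to the epidermal values was not tested.

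Few of the turned genes were bright. Going up in X-KO, 5 of 61 were brighter than the median gene, among them Hsph1, a chaperone of the heat shock response, and the metal-binding Mt2. Hsph1 stood at 3.16 in WT naive, 1.96 in X-KO naive, 1.97 in WT DSS and 5.39 in X-KO DSS, with a second probe at 2.11 against 2.14. In a heat shock list made after the values were seen, the median was 0.16, with 3 of 16 measured members (Hsph1, Hspa1a at 1.31 and Chordc1 at 1.12) past 2-fold above 0, 0 below, and 5 of 16 below 0, among them Hspa8 (-0.30). Going down, S100g and Hmgcs1 were joined by Mirg, a microRNA host transcript (-2.29), and Tox4 (-1.81). Other probes of the same genes gave 1.09 for Mirg and 0.37 for Tox4, and for Pip5k1a, which turned up at 1.24, a second probe gave -0.03. These 3 are therefore uncertain.

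Blunted falls were led among bright genes by Zbtb16, a transcription factor of innate-like lymphocytes (responses of -1.46 in WT and 0.20 in X-KO), the nuclear RNA Malat1 (-1.50 and -0.12), Fndc1 (-0.98 and 0.33, a difference of 1.31 with a second probe at 0.61) and the collagen gene Col6a3 (-0.89 and 0.27). A probe read as Gcm1 (chromosome 7, 123731567 to 123731626, mm9) had 1.15, but a second probe gave -0.47, so this gene is uncertain. In the clock list 3 of 17 genes were past 2-fold above 0 (Per2, Nfil3 and Cry1) and 1 below (Nr1d1), against 3.61% and 2.1% of all genes. Per2, a clock repressor, stood at 0.743, 0.532, 0.114 and 0.236, both DSS arrays being low. The labels used here state no time of day.

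Among the phospholipases A2, 2 of 24 measured genes (of 26) were past 2-fold above 0 and 3 below, with a median of -0.08. Over all genes these shares were 3.61% and 2.1%, and the 3 below include Pla2g10. Pla2g10 itself, the targeted gene, stood at 15.9 in WT naive, 1.7 in X-KO naive, 19.1 in WT DSS and 0.997 in X-KO DSS. Whether its probe lies in the deleted part is not known here, so its difference of -1.03 is not a response of the intact gene. Pla2g3, a secreted enzyme, had 0.668, 1.07, 0.91 and 0.381 (difference -1.94, second probe -2.13). Pla2g2c was at -1.07, while Pla2g7, which degrades platelet-activating factor, and the receptor Pla2r1 were at 1.17 and 1.19. The eicosanoid list had a median of 0.01, with 3 of 31 past 2-fold above 0, among them Alox5ap, which leukotriene synthesis needs (1.44), and 1 below, the leukotriene receptor Ltb4r2 (-1.10).

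The size of the difference varied with brightness. With genes in 5 bins of mean level, in the brightest bin the median difference was -0.26, with a median response of 0.21 in WT and -0.07 in X-KO, against -0.02 in the dimmest. Nuclear-encoded oxidative phosphorylation genes (median -0.44, 37 of 37 below 0 and 0 past 2-fold) and reference genes (median -0.38) also lay below 0 by their medians. With quantile normalization these medians were -0.15 and -0.049, that of the goblet cell list was -0.28 in place of -0.59 and that of the absorptive colonocyte list -0.37 in place of -0.64. Past 2-fold above 0 were 6.96% of the dimmest bin and 0.673% of the brightest, and below 0 4.68% and 0.776%. Repeat spots of 1 probe gave the difference a median SD of 0.0994 among bright probes and of 0.261 at a log2 level of -3 or less, which covers error within an array only. Among 129 genes past 2-fold with a second measured probe, the second agreed in sign in 104 (80.6%) and was also past 2-fold in 63 (48.8%).

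**Figure D4:**
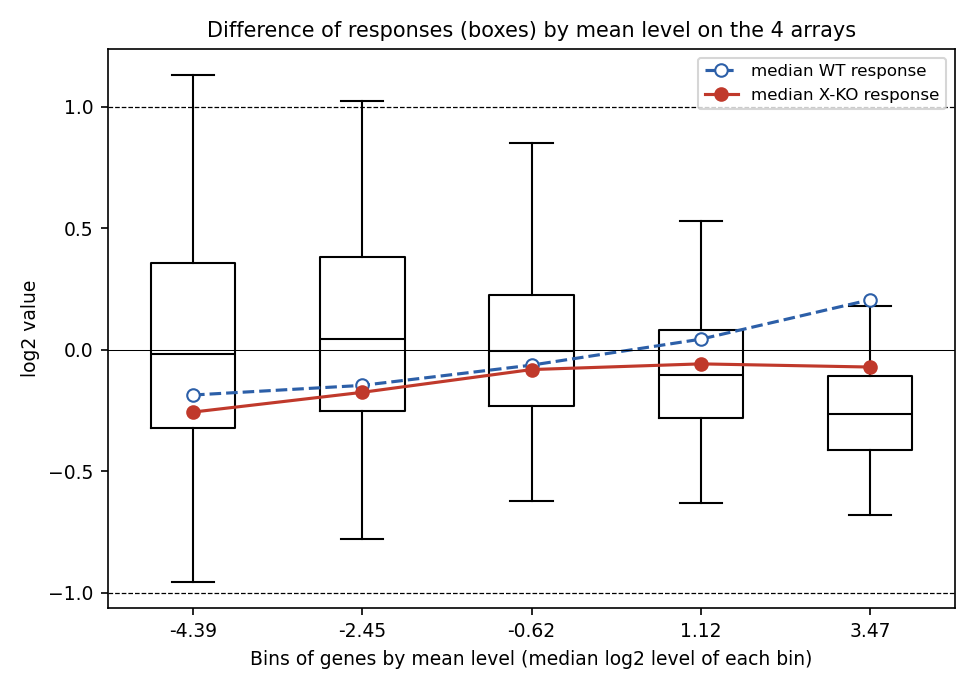
Boxes give the difference of responses (median and quartiles, whiskers from the 5th to the 95th percentile) in 5 equal bins of the 19324 genes ordered by mean log2 level, and lines give the median response of each genotype. The boxes are narrower in the 3 brighter bins than in the 2 dimmer ones, and the median is -0.02 in the dimmest bin and -0.26 in the brightest, where the WT line lies above 0 and the X-KO line just below it.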

How the data were processed

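Cy3-labelled RNA of 4 colon pools was measured on 4 arrays of 1 slide. The deposited scanner files hold an intensity per spot, the processed signal, which Agilent Feature Extraction 11.5.1.1 had corrected for background, per the file headers and the submitters' processing notes. In the deposited series table each spot has a signal, which the authors had divided by the array's 75th percentile, as the values show. The other deposited intensity columns, mean and background median, were used for an alternative.

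Control spots and outlier spots (129 to 136 per array) were left out, and 0 spots were saturated. Log2 processed signals were set relative to the array's 75th percentile, repeat spots were averaged, and probes flagged well above background on all 4 arrays (24948 of 39429) were kept. Per array, 67.7% to 70.4% of spots had that flag. A gene took its brightest probe on average. Names came from accessions through a RefSeq GRCm38.p6 table (27591 probes), symbols (3493), older symbols (393) or the file (7952). Coordinates of probes are mm9.

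Values are differences of log2 ratios with no test, since 1 array per group leaves no residual degree of freedom. The number of arrays limits their precision. The members, 45 gene lists and 4 later ones were chosen with earlier results of these data known. Named genes were the 6 highest and 6 lowest, up to 6 bright genes per class, up to 5 members past 2-fold per list, Pla2g10 and genes at the threshold, and further list members are named as examples or contrasts. Promoter motifs were searched on both strands in the 250 bases before the first listed RefSeq start (12395 of 19324 genes). The calculation was tested on simulated data and returned the classes put in. Python 3.11.15 (pandas 2.3.3, numpy 2.4.6) and, for normexp and quantile normalization, limma 3.58.1 in R 4.3.3 were used.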

Additional observations from a re-analysis of the deposited data

Results flagged for a closer look

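In 61 genes the genotypes moved in opposite directions by at least log2 0.5 each with X-KO going up, and in 64 with X-KO going down. With 1 array per group these differences were not tested. The bright examples going up were Hsph1 (2.14), Svep1, an extracellular matrix protein (1.79), Pip5k1a, a lipid kinase (1.24, but -0.03 by its second probe), and Mt2 (1.19). Those going down were S100g (-2.98), Mirg (-2.29, but 1.09 by its second probe and 0.18 as a mean of its probes), Syt10, a synaptotagmin (-2.0), Tox4 (-1.81, but 0.37 by its second probe), Rs5-8s1 (-1.79) and Hmgcs1 (-1.46).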

How the results depend on the processing

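Of 9 alternatives, these 4 kept both counts (697 above 0 and 406 below) and all 6 class counts within 1.5 times: median scaling (593 and 490), the percentile over probes above background on all 4 arrays, quantile normalization (652 and 417) and the deposited table (696 and 406). So did averaging a gene's probes (685 and 398). With normexp (offset 50) the counts were 424 and 262, with 155 enlarged falls, 50 blunted falls, and 24 genes turned up and 38 down. Keeping probes above background on at least 1 array gave 1383 and 1180, with 741 enlarged rises, 575 enlarged falls, 320 blunted rises, 406 blunted falls, and 236 turned up and 285 down; values at background enter there. Keeping the 9662 brighter genes left 149 and 90, with 133, 60, 22 and 11 in the first 4 classes, and 5 turned up and 8 down. The second brightest probe (4563 genes) gave 140 and 77, with 82, 45, 21 and 40 in these classes, and 18 turned up and 11 down. Fewer genes enter both of these. Among brighter genes 4 list medians changed sign: T and NK cell (0.43 to -0.37), unfolded protein response (0.16 to -0.014), circadian clock (0.17 to -0.14) and type 2 response (0.48 to -0.30). Mirg was 0.18 as a mean of its probes. By the second probe Mirg was 1.09, Gcm1 -0.47, Pip5k1a -0.032, Tox4 0.37 and Cd6 -0.52. The cause was not tested. The dim extremes shrank with normexp, Plekhg4 from 4.19 to 2.20 and Rsph4a from 3.29 to 1.90, while Lcn2 was 2.88 and S100g -2.92. No paired analysis was possible because each group is 1 array, and no array can be left out.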

Other observations

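Immunoglobulin transcripts stood out by their spread. The 122 measured heavy and light chain transcripts had a median difference of 0.46 and an SD of 1.20 over transcripts, from -3.10 to 3.36, where all genes had an SD of 0.514. Of them 31 (25.4%) were 2-fold or more above 0 and 13 (10.7%) were 2-fold or more below, against 3.61% and 2.1% of all genes. The set is dimmer than all genes (median log2 level -1.96 against -0.62), and 2-fold differences are more frequent among dim genes, in 6.96% above 0 and 4.68% below in the dimmest of 5 bins. S60946, a kappa variable region transcript and the highest of them, had relative signals near each other on both naive arrays and WT DSS (log2 levels of -1.84, -1.78 and -2.14) and stood at 1.27 in X-KO DSS. General B and plasma cell markers had a median of 0.21 with 0 of 17 past 2-fold in either direction.

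Plekhg4, the gene with the highest difference of all, was dim: its log2 level was -3.12 in WT naive, -5.92 in X-KO naive, -5.89 in WT DSS and -4.50 in X-KO DSS. Its difference of 4.19 rests mainly on the naive distance of -2.79, and the array with the high value was WT naive. Rsph4a, a cilia gene at 3.29, and the unnamed transcript A_55_P2059775 at 3.86 were dim as well. In both, unlike Plekhg4, the DSS distance was the larger and X-KO DSS the highest array. The DSS distances were 2.72 and 2.15, and the naive distances -0.57 and -1.71. The median of the mast cell and eosinophil list was 0.82, or 0.45 with normexp, with 4 of 8 measured members (of 16) past 2-fold above 0, among them Hdc, which makes histamine (1.27), and the mast cell protease Mcpt4 (1.07). Vip, a gut neuropeptide, had 1.35, and neuronal Nos1 1.48, while the list of enteric neurons and glia had a median of 0.19.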
